A study of Mus musculus with 2 samples.

Results

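Kinesins and dyneins are the ATP-driven motors that walk along microtubules. The 58 genes described here were taken by name, as every mouse gene with a kinesin (Kif), kinesin light chain (Klc), cytoplasmic dynein (Dync) or dynein light chain (Dynl) symbol and at least 1 protein-coding transcript. They were 58 of 22028 protein-coding genes and of 55536 annotated genes in all. No measured value is part of this rule, but it was set with earlier results of these data known. The naming pattern leaves out the Kifc genes, Cenpe and the axonemal dyneins (Dnah genes), which are given separately. Total RNA was sequenced from cortex tissue of the left cerebral hemisphere, taken from males of the strain B6CASTF1/J (an F1 hybrid of C57BL/6J and CAST/EiJ) at 10 days of age. The mice formed 1 group without treatment, with 1 library from each of 2 animals, called replicate 1 and replicate 2. The libraries held 31254528 and 30218308 expected counts, so that 1 TPM of a transcript with an effective length of 1 kb equalled 20.5 and 19.7 counts. With 1 group of 2 libraries no test was made, no p-value is given, and each error is the SD over the libraries (n = 2), which may hold technical as well as animal differences.

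In a neuron, most kinesins carry cargo towards the plus ends of microtubules, which point away from the cell body in axons. Cytoplasmic dynein-1 carries cargo back towards the minus ends. Kinesin-1 is built from heavy chains (Kif5a, Kif5b, Kif5c) that hold the motor and light chains (Klc1 to Klc4) that hold cargo. Dynein-1 is built on the heavy chain Dync1h1, with intermediate, light intermediate and 3 classes of light chains (LC8, roadblock and Tctex). Dynein-2 works inside cilia, a further set of kinesins builds the mitotic spindle, and others depolymerise microtubules or stop their growth.

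Levels are TPM, a length-normalised abundance with the same total in each library, taken from the deposited gene tables and called the first quantification. The deposited transcript tables of a second quantification were summed by gene and used for comparison. Its TPM values were higher in general, by a median of 1.53 times over protein-coding genes at 1 TPM or more. All 7 markers of cortical excitatory neurons were detected, with a summed level of 1229 TPM in replicate 1 and 1219 TPM in replicate 2. All 7 astrocyte, 6 microglial and 7 myelinating oligodendrocyte markers were detected too. The tissue was therefore a mixture, in which fewer cells of a type and less RNA per cell cannot be told apart. The libraries differed in several marker sums: 8 choroid plexus markers summed to 9.81 TPM in replicate 1 and 316 in replicate 2, 8 striatal markers to 225 and 155, 5 erythroid genes to 1213 and 836, and the 7 myelinating oligodendrocyte markers to 375 and 322. Ttr alone held 7.35 and 304 TPM of the choroid plexus sum, and the other 7 markers 2.46 and 12.5 TPM. None of these markers was at 0 in both libraries, and all 8 choroid plexus markers were higher and all 7 oligodendrocyte markers lower in replicate 2.

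At 1 TPM or more in both libraries, 44 of the 58 motor genes were detected (75.9%), against 59.6% of all protein-coding genes. Levels of 10 TPM or more on average were found for 29 of the 58, against 38.5% of protein-coding genes, and of 100 TPM or more for 12, which is 20.7% against 4.42%. The median motor gene stood at 10.6 TPM and the median protein-coding gene at 3.93 TPM. Together the motor genes held 3703 TPM in replicate 1 and 3754 TPM in replicate 2, or 0.733% and 0.734% of all protein-coding TPM. The 6 most abundant genes, Kif1a, Klc1, Dynll1, Kif5c, Kif5a and Kif1b, made up 50.1% and 50.3% of that sum. When ordered by level, 23 of 57 neighbouring pairs overlapped between the libraries, but only 7 of the 28 pairs among genes at 10 TPM or more did. Kif1a and Klc1 at the top of the order were one such pair, and Dync1h1 and Kif21b were another.

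**Figure D1:**
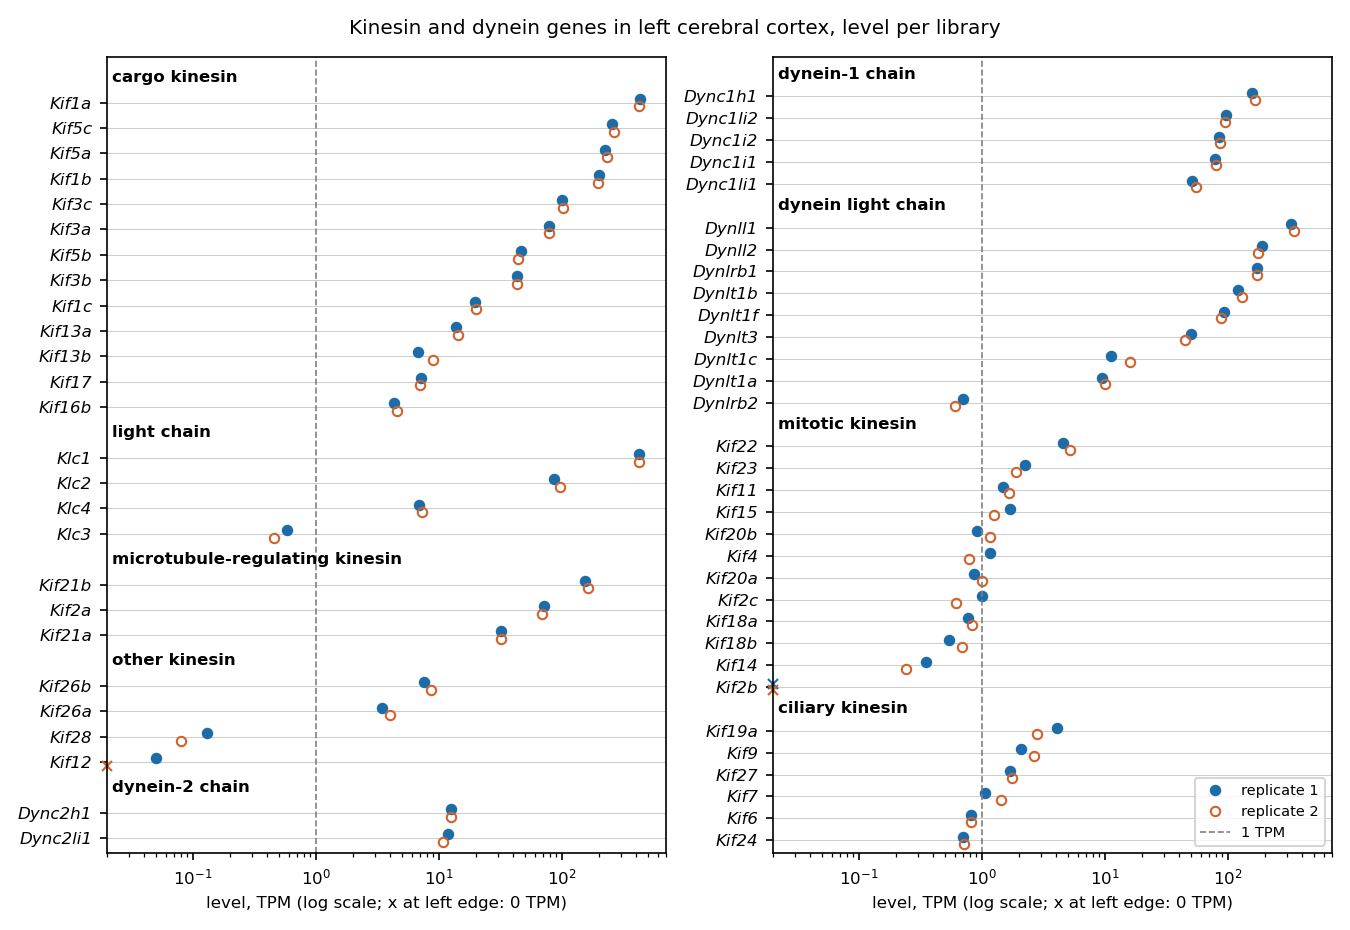
Level of each of the 58 genes in TPM (log axis) in replicate 1 (filled) and replicate 2 (open), grouped by role, with the 1 TPM line dashed and values of 0 TPM as crosses at the left edge. Cargo kinesins and dynein-1 chains lie right of the line, and most of the 12 mitotic kinesins lie on or left of it.

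All 13 cargo kinesins were detected, and together they held 38.5% of the motor TPM in replicate 1 and 38.4% in replicate 2. The heavy chains of kinesin-1 came mainly from the neuronal genes. Kif5c (ENSMUSG00000026764.15, chromosome 2, 49619298 to 49774778, mm10) stood at 254 TPM in replicate 1 and 264 TPM in replicate 2, and Kif5a (ENSMUSG00000074657.5, chromosome 10, 127225696 to 127263348), mutated in hereditary spastic paraplegia, at 223 and 232 TPM. Kif5b, the form that cells outside the nervous system also use, stood at 46.1 and 44.1 TPM. Kif5c was higher than Kif5a by 1.14 ± 0.00126 times (SD, n = 2) and than Kif5b by 5.76 ± 0.329 times, with no overlap between the libraries. Kif5b thus held 8.48 ± 0.447% of the heavy chain TPM. In the second quantification that share was 12.8 ± 0.172%, with Kif5c at 48.0 ± 1.40% and Kif5a at 39.3 ± 1.57%.

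Among the light chains, which link kinesin-1 to cargo adaptors, Klc1 (ENSMUSG00000021288.18, chromosome 12, 111758849 to 111807844) stood at 423 and 425 TPM and Klc2 at 86.5 and 95.8 TPM. Klc1 held 81.1 ± 1.01% of the light chain TPM. Klc4 stood at 6.87 and 7.29 TPM, and Klc3, known for a role in sperm tails, at 0.58 and 0.46 TPM. The Klc3 value has a further limit, since 28.1% of its annotated exon bases are also exon bases of Ercc2 on the opposite strand, which stood at 18.2 and 20.6 TPM, and the strand setting of the counting was not given in the sources used here. Summed over genes, heavy chains stood at 524 and 540 TPM and light chains at 517 and 528 TPM. The heavy to light ratio was therefore 1.01 in replicate 1 and 1.02 in replicate 2 (mean 1.02 ± 0.00701). The second quantification gave 1.21 ± 0.0235 and the protein-coding transcripts alone gave 1.07 ± 0.0036, both outside the spread of the libraries.

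Klc1 is also a gene whose tail end is spliced in several ways. The segment that separates its main transcripts is a 27-base stretch at chr12:111789460-111789486 on the plus strand of mm10, the last part of a coding exon in 4 transcripts, while 2 other transcripts end the exon just before it. Its sequence is shown because its first 6 bases, in capitals, have the letters of a 5′ splice site, where those 2 transcripts are cut.
Klc1 27-base segment: GTGAGTatgagcgtagagtggaatggg
Inclusion, the TPM of annotated transcripts that hold a segment as a share of all those that span it, was 45.3% in replicate 1 and 46.1% in replicate 2. The second quantification gave 63.2% and 63.3% for the same segment. The libraries lay within 1 point of each other, and the quantifications fell on opposite sides of 50%. The most abundant Klc1 transcript was accordingly Klc1-202, without the segment, in the first quantification (51.4 ± 0.535% of the gene) and in the second Klc1-203 with the segment (42.3 ± 0.0888%).

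Kinesin-3 motors carry synaptic vesicle precursors and dense-core vesicles along axons. Kif1a (ENSMUSG00000014602.15, chromosome 1, 93015464 to 93101951) had the highest mean of all 58 genes, at 428 TPM in replicate 1 and 424 TPM in replicate 2, which placed it at percentile 99.6 of protein-coding genes. Kif1b, a carrier of vesicles and mitochondria, followed at 199 and 197 TPM. The ratio of Kif1a to Kif1b was 2.15 in both libraries and 2.38 ± 0.0884 in the second quantification. Their broadly expressed relative Kif1c stood at 19.5 and 20.2 TPM. Of the endosomal members, Kif13a stood at 13.7 and 14.2 TPM, Kif13b at 6.79 and 9.01 TPM and Kif16b at 4.30 and 4.54 TPM.

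Kif1a transcripts differ by short coding exons, shown here because both keep the reading frame and were used in different proportions. The 27-base exon lies at chr1:93065552-93065578 and the 24-base segment at chr1:93026832-93026855, on the minus strand.
Kif1a 27-base exon: ccaacactgtgcccggaggacccaaat
Kif1a 24-base segment: cgtttccttcggaaatgacactag
Transcripts with the 27-base exon held 19.2% and 19.1% of the spanning TPM in the first quantification and 26.4% and 27.3% in the second. For the 24-base segment the values were 78.8% and 79.1%, and then 71.6% and 70.5%. The lower inclusion of the 27-base exon was thus seen in each library and quantification. Kif1a-204 was the top transcript in both quantifications, at 69.3 ± 1.97% and 45.8 ± 0.0673% of the gene. In the second, Kif1a-206, an annotated transcript of 528 bases, took 33.1% of the TPM, against 10.2 ± 2.45% in the first.

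Kinesin-2 motors act as a heterotrimer of Kif3a with Kif3b or Kif3c and the adaptor Kifap3, or as Kif17 alone. Kif3c, the neuron-enriched partner, was the highest at 99.98 and 101.31 TPM, followed by Kif3a at 78.9 and 78.3 TPM and Kif3b at 42.7 and 43.0 TPM. None of these genes overlapped with another over the libraries in the first quantification. In the second the order of Kif3c and Kif3a was reversed, with Kif3a at 170 and 168 TPM and Kif3c at 147 and 156 TPM. Kif3c was 2.35 ± 0.0103 times as high as Kif3b, and 2.61 ± 0.092 times in the second quantification. Kif3a, which either partner requires, stood at 0.548 ± 0.00726 of the sum of Kif3b and Kif3c in the first quantification and at 0.805 ± 0.033 in the second. Kifap3, the adaptor, stood at 122 and 117 TPM. Kif17, known as a carrier of NMDA receptor subunits in dendrites, stood at 7.18 and 6.97 TPM. Of the exon bases of Kif3c, 35.3% are shared with the antisense gene 1110002L01Rik, which stood at 3.03 and 3.91 TPM.

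In Kif3a, a 72-base exon at chr11:53588689-53588760 on the plus strand was present in 1 of 4 spanning transcripts. It is printed because it lengthens the coding sequence without a change of frame.
Kif3a 72-base exon: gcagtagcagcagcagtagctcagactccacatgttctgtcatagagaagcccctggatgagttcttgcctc
Its inclusion was 28.9% and 28.0% in the first quantification and 32.9% and 34.4% in the second. The top transcript in both was Kif3a-203 without this exon.

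The microtubule-regulating kinesins were all well above 10 TPM. Kif21b (ENSMUSG00000041642.18, chromosome 1, 136131389 to 136177998), a neuronal kinesin that pauses microtubule growth, stood at 153 and 163 TPM. Its paralogue Kif21a, in which mutations cause congenital fibrosis of the extraocular muscles, stood at a mean of 31.98 ± 0.0283 TPM. Kif21b was 4.94 ± 0.206 times as high, and 4.74 ± 0.119 times in the second quantification. Kif2a, a kinesin-13 that removes tubulin from microtubule ends and trims axon branches, stood at 70.8 and 69.1 TPM.

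For Kif21b, most of the TPM was assigned to a transcript that the annotation does not class as protein-coding. Kif21b-204, of class nonsense-mediated decay, held 76.1 ± 3.48% of the gene in the first quantification and 72.7 ± 1.91% in the second, while the protein-coding Kif21b-201 stood at only 23.8 and 32.5 TPM. Kif21b-204 holds an extra exon of 180 bases at chr1:136173472-136173651 on the plus strand. Its first 100 bases, up to and including the annotated stop codon in capitals, are shown because they set where the predicted protein ends.
Kif21b-204 coding part of the extra exon: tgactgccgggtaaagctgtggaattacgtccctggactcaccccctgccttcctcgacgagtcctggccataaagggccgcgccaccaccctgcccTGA
The stop codon lies 80 bases before the end of that exon, and 1 exon follows. The coding part was present in 1 of 2 spanning transcripts. Its inclusion was 83.5% and 78.7% in the first quantification and 81.2% and 85.3% in the second. With only 2 spanning transcripts, these values restate the share of Kif21b-204 and are not separate evidence for the exon. Whether the transcript is degraded was not measured.

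Kif2a also carried a strongly alternative exon, of 114 bases at chr13:106969704-106969817 on the minus strand, present in 2 of 6 spanning transcripts.
Kif2a 114-base exon: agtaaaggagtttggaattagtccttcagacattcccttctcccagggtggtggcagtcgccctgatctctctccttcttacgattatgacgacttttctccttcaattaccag
The exon was included in 56.1% and 57.1% of the spanning TPM in the first quantification and in 61.8% and 64.3% in the second. Its top transcript still differed, with Kif2a-206 at 35.9 ± 5.16% in the first and Kif2a-204 at 49.0 ± 1.14% in the second. Kif2a shares 19.2% of its exon bases with Dimt1 on the opposite strand, which stood at 9.89 and 9.70 TPM.

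All 5 core chains of dynein-1 were detected. The motor subunit Dync1h1 (ENSMUSG00000018707.13, chromosome 12, 110601452 to 110666945), mutated in cortical malformations and motor neuropathies, stood at 157 TPM in replicate 1 and 165 TPM in replicate 2. The intermediate chains, which bind dynactin, stood near each other, with Dync1i2 (the ubiquitous form) at 85.2 and 86.1 TPM and Dync1i1 (the neuronal form) at 79.0 and 79.4 TPM. Of the light intermediate chains, which bind cargo adaptors, Dync1li2 stood at 96.5 and 94.0 TPM and Dync1li1 at 51.1 and 54.5 TPM. The excess of Dync1li2 was 1.81 ± 0.114 times, and 1.33 ± 0.0749 times in the second quantification. In the first quantification, 28.1% of Dync1li2 was assigned to Dync1li2-208, a processed transcript of 144 bases that had 0 TPM in the second. Non-coding transcripts together held 36.8% and 39.4% of Dync1li2 in the first quantification, against 1.70% and 1.63% of Dync1li1. With protein-coding transcripts alone, the excess of Dync1li2 in the first quantification was thus smaller.

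Relative to Dync1h1, the intermediate chains summed to 1.04 in replicate 1 and 1.00 in replicate 2 (mean 1.02 ± 0.0304) and the light intermediate chains to 0.939 and 0.899 (mean 0.919 ± 0.0286). The second quantification gave 1.20 and 0.846. The light intermediate chains stood below the heavy chain in each library and quantification. The intermediate chains were close to it in the first quantification, and with the deposited posterior mean TPM their ratio was 1.04 in replicate 1 and 0.987 in replicate 2.

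The paralogous intermediate chain genes each have a 60-base coding exon that some transcripts skip. The exon of Dync1i1 lies at chr6:5784439-5784498 and that of Dync1i2 at chr2:71233649-71233708, both on the plus strand. They are shown together because 46 of their 60 bases are identical (76.7%), with the 14 bases that differ in capitals.
Dync1i1 60-base exon: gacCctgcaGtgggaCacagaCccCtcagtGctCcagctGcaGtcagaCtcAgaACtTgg
Dync1i2 60-base exon: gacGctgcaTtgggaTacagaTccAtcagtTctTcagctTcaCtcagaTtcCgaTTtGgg
Inclusion of the Dync1i1 exon was 88.5% and 88.4% in the first quantification and 91.5% and 90.8% in the second. The Dync1i2 exon was included at 83.7% and 84.6%, and then at 65.5% and 71.8%. Transcripts with the exon thus made up most of the spanning TPM of both genes. Shorter alternative segments were a 33-base stretch of Dync1i1 at 86.8 ± 0.475% and an 18-base exon of Dync1i2 at 33.8 ± 2.62%. The second quantification gave 64.8 ± 1.33% and 20.8 ± 0.0932% for them.

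Of the 9 dynein light chain genes, 8 were detected and 3 stood above Dync1h1 in both libraries. Light chains are homodimers that bind the intermediate chains, and LC8 in particular binds many proteins outside dynein. Dynll1 (ENSMUSG00000009013.5, chromosome 5, 115297110 to 115300999), the first LC8 gene, stood at 327 and 344 TPM and Dynll2 at 189 and 176 TPM. Dynll1 was the higher in each library, by 1.84 ± 0.161 times, and by 2.72 ± 0.21 times in the second quantification. In the first, however, non-coding transcripts held 59.4% and 58.3% of Dynll1, against 0.698% and 0% of Dynll2. With protein-coding transcripts alone, Dynll2 was thus the higher in the first quantification and Dynll1 in the second. The roadblock chain came almost entirely from Dynlrb1, at 173 and 172 TPM, while Dynlrb2, known from cilia, stood at 0.70 and 0.61 TPM on 6 and 5 counts.

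The Tctex chain comes from Dynlt3, at 50.5 and 45.0 TPM, and from 4 gene copies on chromosome 17. The coding sequences of Dynlt1a, Dynlt1c and Dynlt1f are identical over 342 bases, and that of Dynlt1b differs from them at 1 base, written C21A with positions counted from the start codon. The first 60 bases are shown for the 2 versions, with the base that differs in capitals, because reads from the coding part can separate only these.
Dynlt1a, Dynlt1c and Dynlt1f: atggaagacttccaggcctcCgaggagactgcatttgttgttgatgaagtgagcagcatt
Dynlt1b: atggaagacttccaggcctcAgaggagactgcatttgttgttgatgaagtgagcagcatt
Dynlt1b (ENSMUSG00000096255.2, chromosome 17, 6430112 to 6436296) stood at 120.3 and 131 TPM, Dynlt1f at 92.7 and 87.3 TPM, Dynlt1c at 11.1 and 15.9 TPM and Dynlt1a at 9.45 and 10.1 TPM. Of the 31-base words of their first annotated transcripts, between 67.6% (Dynlt1a) and 96.0% (Dynlt1c) also occur on the same strand of transcripts of other genes, so the division among the copies is uncertain. Dynlt1a also shares 13.6% of its exon bases with Tmem181a on the opposite strand, which stood at 47.2 and 48.5 TPM. Non-coding transcripts held 69.4 ± 2.22% of Dynlt1a and 67.9 ± 8.10% of Dynlt1c in the first quantification. The sum of the 4 copies was 234 TPM in replicate 1 and 244 TPM in replicate 2. Dynlt1b held 52.6 ± 1.47% of that sum, and 53.4 ± 1.04% in the second quantification.

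Relative to Dync1h1, the LC8 genes summed to 3.29 in replicate 1 and 3.14 in replicate 2 (mean 3.21 ± 0.0999), the roadblock genes to 1.11 and 1.04 (mean 1.08 ± 0.0454) and the Tctex genes to 1.81 and 1.75 (mean 1.78 ± 0.0405). The order of LC8, Tctex and roadblock was the same in each library and quantification, while the sizes were not. LC8 stood at 4.42 ± 0.0144 in the second quantification and at 2.21 ± 0.0643 with protein-coding transcripts alone. For roadblock these values were 1.54 ± 0.0321 and 1.17 ± 0.0129. Much of the LC8 level lay on non-coding transcripts. The non-coding Dynll1-203 held 48.0 ± 0.638% of Dynll1 in the first quantification, and transcripts of all non-coding classes together held 58.9 ± 0.763% of it, against 41.1 ± 2.21% in the second. In the second quantification the protein-coding Dynll1-202 led, at 57.1 ± 2.12%.

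**Figure D2:**
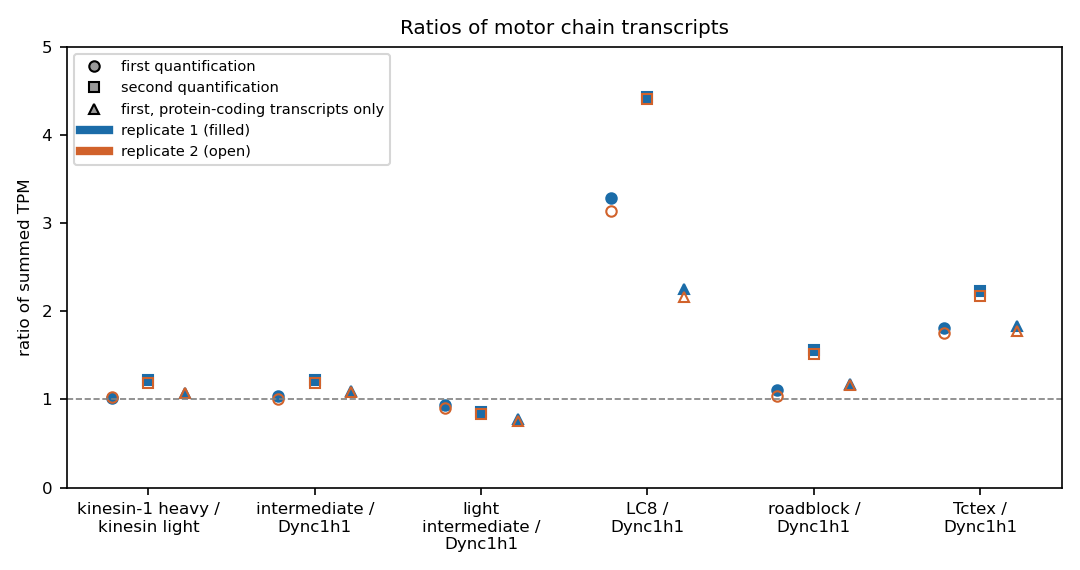
Ratio of summed TPM of motor chain classes, for kinesin-1 heavy over light chains and for dynein chain classes over Dync1h1, in replicate 1 (filled) and replicate 2 (open). Circles are the first quantification, squares the second and triangles the protein-coding transcripts of the first. LC8 has the widest absolute shift, from a mean of 3.21 to 4.42 or 2.21, more than its libraries differ within each.

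Dynein-2, the retrograde motor inside cilia, was low in comparison. Its heavy chain Dync2h1 stood at 12.6 TPM in both libraries and its light intermediate chain Dync2li1 at 11.9 and 10.8 TPM. Dync1h1 was 12.8 ± 0.438 times as high as Dync2h1, and 12.01 ± 0.598 times in the second quantification.

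Of the 12 kinesins with mitotic roles, 4 were detected and 11 had a mean below 100 counts. The highest in the first quantification was Kif22, which moves chromosome arms, at 4.56 and 5.16 TPM on 74 and 76 counts. Of that level, 46.1% and 58.9% lay on non-coding transcripts. Kif23, needed for cytokinesis, stood at 2.26 and 1.91 TPM, Kif11, which pushes spindle poles apart, at 1.48 and 1.65 TPM, and Kif15, its backup, at 1.70 and 1.26 TPM. The others, Kif20b, Kif4, Kif20a, Kif2c, Kif18a, Kif18b and Kif14, had means between 0.295 and 1.05 TPM in the first quantification. Kif2b was listed at 0 in both libraries, where 3 counts would have given 0.0681 and 0.071 TPM. In the second quantification Kif2c had a mean of 3.91 TPM, or 3.14 times the first after division by the general factor. Of that level, 80.9 ± 4.11% lay on non-coding transcripts. Kif22, Kif23 and Kif15 had means of 4.97, 4.85 and 3.90 TPM in the second quantification. The 12 markers of proliferating cells measured alongside were low too, with 11 detected and sums of 26.9 and 26.4 TPM. Among the mitotic kinesins, Kif20a and Kif4 have more abundant neighbours on the opposite strand. Kif20a shares 29.3% of its exon bases with Cdc23, at 30.6 and 34.5 TPM, and Kif4 shares 15.1% with Pdzd11, at 17.3 and 16.1 TPM.

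Among the 6 ciliary kinesins, 4 were detected. Kif19a, which shortens microtubules at ciliary tips, stood at 4.07 and 2.79 TPM, Kif9, found in motile cilia, at 2.09 and 2.63 TPM, Kif27 at 1.69 and 1.77 TPM and Kif7, a Hedgehog pathway regulator at the ciliary tip, at 1.06 and 1.44 TPM. Kif6 and Kif24 stayed below 1 TPM. The sum of the 6 genes was 10.4 TPM in replicate 1 and 10.2 TPM in replicate 2. Markers of motile cilia and ependyma summed to 32.9 and 38.0 TPM with 4 of 10 detected and none at 0. Ccdc39 alone held 20.55 and 23.29 TPM of these sums. By counts scaled to library size all 10 markers were higher in replicate 2, some of them only slightly. Choroid plexus markers, given above, differed far more between the libraries than the ciliary kinesins did, and their part in these values was not tested.

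Kif26a and Kif26b, which lack motor activity and act in signalling, stood at 3.42 and 4.00 TPM and at 7.59 and 8.55 TPM. Kif28 stood at 0.13 and 0.08 TPM. Kif12, known from kidney, had 1 count in replicate 1 and was listed at 0 in replicate 2.

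Partners of the motors were examined from lists. All 12 dynactin subunits, the cofactor that dynein-1 needs for long runs, were detected, at a median of 93.4 TPM. Their largest subunit Dctn1 stood at 164 and 172 TPM, close to Dync1h1 at 157 and 165 TPM. Of 15 dynein regulators and adaptors, 13 were detected, led by Pafah1b1 (Lis1), at 228 and 206 TPM. All 20 kinesin adaptors that matched a gene were detected, at a median of 90.1 TPM. The highest was Clstn1 (calsyntenin-1), which ties vesicles to kinesin light chains, at 438.5 and 431 TPM. Trak1, which holds mitochondria to kinesin-1 and dynein, stood at 99.2 and 102 TPM. None of the members of these 3 lists with a mean of 100 counts or more differed by more than 1.5-fold between the libraries.

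The libraries were then compared gene by gene, on the log2 scale as replicate 2 relative to replicate 1. A pseudocount of 0.1 TPM was used, and a gene needed 100 expected counts on average. Of the 58 motor genes 41 qualified, and 0 of the 41 were past 1.5-fold in either direction, against 1.12% of protein-coding genes. With that background, a count of 0 among 41 is no particular result. The median was 0.05 for motor genes and 0.04 for protein-coding genes. Within 0.1 of 0 lay 28 of the 41 (68.3%), against 54.1% of protein-coding genes. The genes were not matched on counts, and counting error in such ratios shrinks as counts rise. The 2 shares therefore cannot show that motor genes were steadier. The widest values were -0.53 for Kif19a and 0.51 for Dynlt1c, followed by 0.41 for Kif7 and 0.40 for Kif13b.

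For these 4 genes the counts were set beside the TPM, with the ratio of counts scaled to library size and its 95% Clopper-Pearson interval, which covers counting error only. Kif19a had 155 and 129 counts, a ratio of 0.861 (0.676 to 1.09), so that its TPM difference exceeded its count difference. Kif7 had 97 and 127 counts, a ratio of 1.35 (1.03 to 1.78). Dynlt1c had 456 and 581 expected counts, a ratio of 1.32 (1.16 to 1.49), and is one of the copies with shared sequence. Kif13b had 736 and 866 counts, a ratio of 1.22 (1.10 to 1.34). For the 6 most abundant genes the ratios lay between 0.983 (Kif5c and Kif1b) and 1.05 (Dynll1, 1.00 to 1.10). Over all 41 genes, 17 intervals left out 1 (41.5%), 13 of them higher and 4 lower in replicate 2, against 24.4% of protein-coding genes with 100 counts or more. These intervals narrow as counts rise, and the genes were not matched on counts.

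**Figure D3:**
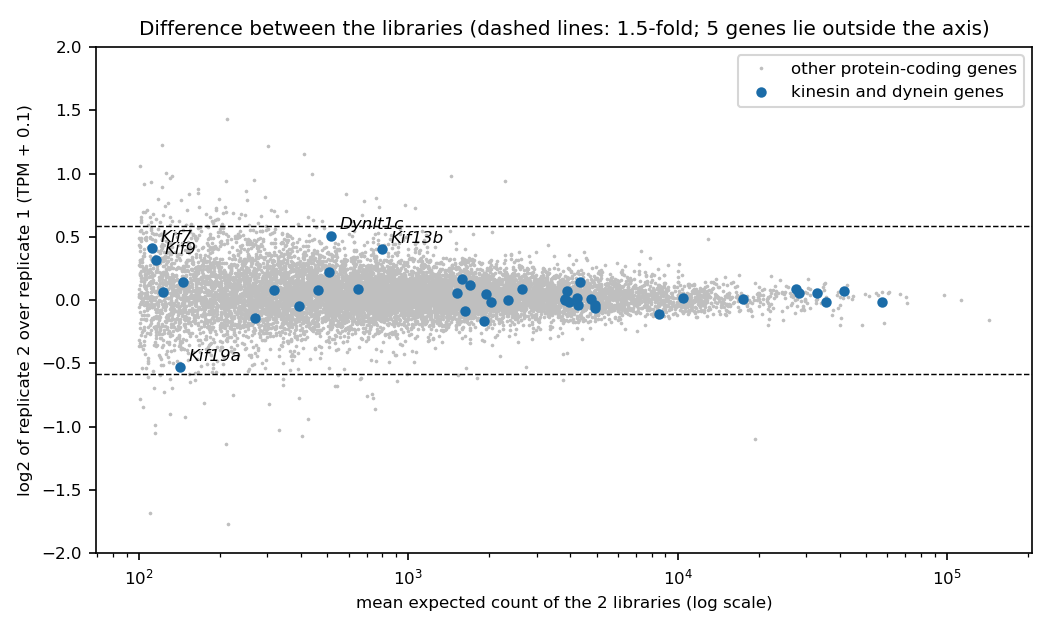
Log2 of replicate 2 over replicate 1 TPM (vertical axis) against the mean expected count (log axis) for the 41 motor genes (large points) and other protein-coding genes (grey), with 1.5-fold marked by dashed lines. No motor gene lies beyond the lines, and Kif19a at -0.53 and Dynlt1c at 0.51 come nearest to them.

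Levels of the motor genes were next compared between the quantifications. After division by the general factor of 1.53, the second quantification gave between 0.719 (Dync1li2) and 1.74 (Dynlt1c) times the first for the 29 genes at 10 TPM or more, and 27 of the 29 lay within 1.5 times. The exceptions were Dynlt1c and Kif5b, at 1.56. The gene that differed most was Kif24, which acts at centrioles and holds back cilium formation. It stood at 0.70 and 0.72 TPM in the first quantification, on 47 and 45 counts, and at 14.7 and 18.5 TPM in the second.

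The Kif24 signal of the second quantification lay almost entirely on Kif24-204, a processed transcript of 1151 bases, which held 93.5% and 95.8% of the gene there, against 0.05 and 0.10 TPM in the first. Of the 1121 words of 31 bases in Kif24-204, 48.6% also occur in transcripts of other genes on either strand, 101 genes in all. The word shared by the most of them lies at chr4:41454787-41454817 on the minus strand and is shown because 70 other genes hold it on either strand. On the same strand, as printed, 30 other genes hold it.
Kif24-204 shared word: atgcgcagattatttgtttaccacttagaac
How much of the difference comes from these words was not tested.

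**Figure D4:**
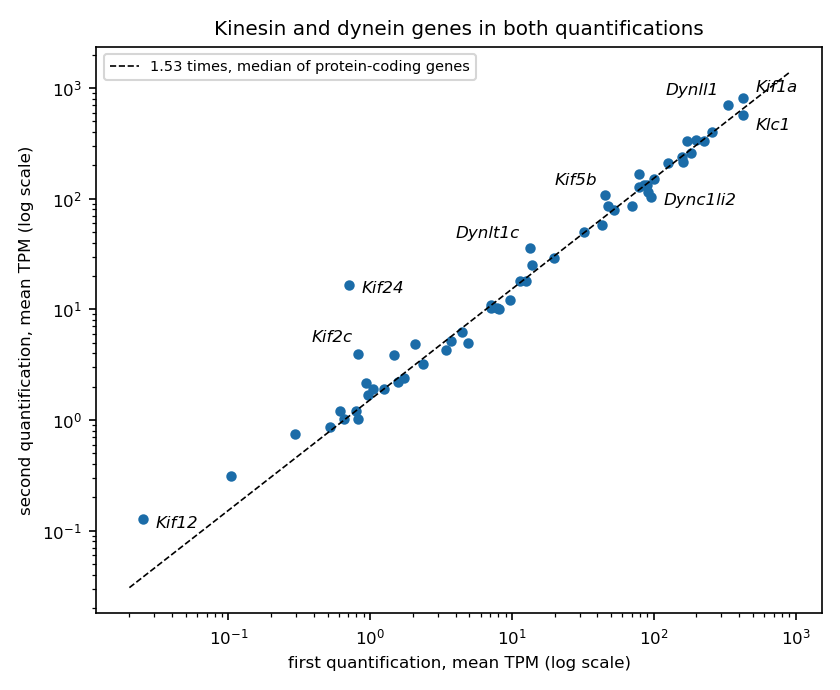
Mean TPM of each motor gene in the second quantification (vertical) against the first (horizontal), both on log axes, for genes above 0 in both, with the median of protein-coding genes at 1.53 times as a dashed line. Most genes lie along the line, and Kif24 lies far above it.

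The leading transcript of each gene was compared next. Of the 27 genes at 10 TPM or more with at least 2 annotated transcripts, 18 had the same top transcript in both quantifications, against 76.2% of protein-coding genes chosen in the same way. Between the libraries the top transcript was the same for 24 of the 27 by the first quantification and for 25 of the 27 by the second. Several of the main motors had 1 dominant transcript by either measure. Kif5a-201 held 98.1 ± 0.276% and 97.9 ± 0.446% of Kif5a, Dync1li1-201 98.3 ± 0.048% and 98.2 ± 0.0267% of Dync1li1, Dync1h1-201 89.8 ± 0.906% and 91.7 ± 0.169% of Dync1h1, and Kif5c-201 92.8 ± 3.44% and 82.6 ± 2.25% of Kif5c. For Kif1b, Kif1b-203 led in both, at 81.6 ± 0.255% and 62.2 ± 0.854%.

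The 9 genes with different top transcripts were Klc1, Dynlrb1, Dynll1, Kif3c, Klc2, Kif2a, Kif21a, Dynlt1c and Dync2h1. Dynlrb1 changed most, since Dynlrb1-202 held 97.2 ± 2.19% in the first quantification and 5.36 ± 0.149% in the second, where the processed transcript Dynlrb1-201 held 47.9 ± 1.35%. In Kif3c, Kif3c-201 led in the first (48.0 ± 0.343%) and Kif3c-205 in the second (58.3 ± 1.88%). In Klc2, Klc2-201 held 38.9 ± 0.0534% and 0.106 ± 0.144%, and Klc2-204 36.4 ± 3.91% and 82.2 ± 2.77%. In Kif21a, Kif21a-204 went from 63.3 ± 7.57% to 17.2 ± 8.46%, and Kif21a-205 led in the second at 34.7 ± 0.0487%. In Dync2h1, Dync2h1-204 held 33.2 ± 7.39% in the first and Dync2h1-206 36.9 ± 3.38% in the second. In Dynlt1c, the retained-intron transcript Dynlt1c-204 led in the first at 34.0 ± 2.23% and Dynlt1c-201 in the second at 55.4 ± 8.76%.

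In all, 24 alternative coding segments of 12 to 200 bases with an inclusion between 10% and 90% in the first quantification were found in 11 motor genes at 10 TPM or more, and 19 of them keep the reading frame. Segments were cut at every annotated exon or coding edge, so they are not all separate splicing choices. In Kif21a, adjacent segments of 61 and 68 bases had equal inclusion. Each was counted as breaking the frame, although together they keep it. For 21 of the 24 both quantifications fell on the same side of 50%, and for 10 the means lay within 10 points of each other. The gaps ranged from 0.64 points to 38.2 points. The widest was in Kif21a, for a 39-base segment at chr15:90949006-90949044 included at 35.9 ± 6.33% in the first quantification and 74.1 ± 13.04% in the second.

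**Figure D5:**
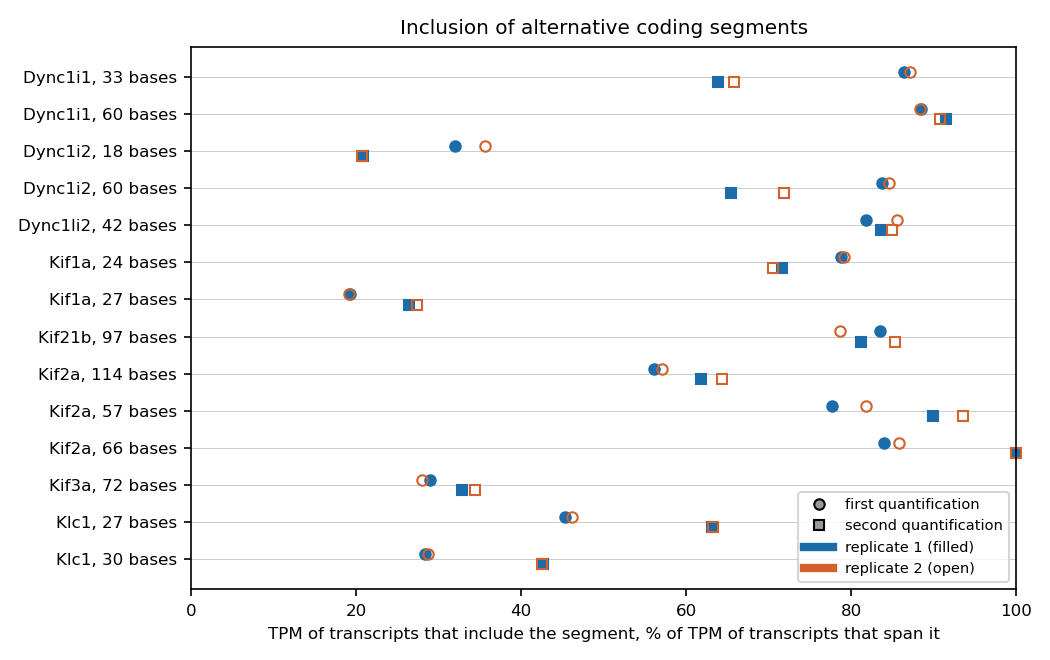
Inclusion of 14 of the 24 alternative coding segments, in 8 genes with Kif21a, Dync2h1 and Kif1c left out (horizontal axis, % of the TPM of transcripts that span the segment), for the first quantification (circles) and the second (squares), in replicate 1 (filled) and replicate 2 (open). The Kif21b segment lies above 78% throughout, and the Klc1 27-base segment lies below 50% for circles and above 50% for squares.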

How the data were processed

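Total RNA (300 ng per library) was sequenced, and per the labels the spike-in mix is one for stranded libraries. Per the file headers, the first quantification holds expected counts and TPM that the authors deposited per gene and transcript. The second holds estimated counts and TPM per transcript, deposited by the authors. The gene tables also hold posterior mean TPM and interval bounds of TPM, used as a score without a stated level, and the transcript tables a percent of each gene per transcript, all as deposited by the authors. Shares printed here were computed from TPM. Both rest on mm10 with GENCODE M21, per the deposited descriptions. The programs and the strand setting of the counting were not given in the sources used here, and alleles were not separated. The 2 animals have numbers of their own in the labels but share a donor identifier. Members and lists were chosen with earlier results of these data known. Per-library values were set to be given for members at 10 TPM or more, past 1.5-fold or highest in a role; those of other members were added after being seen. Expected counts were used without rounding for the minimum count. They were rounded for the Clopper-Pearson intervals and to compute the alternative scaling by TMM (edgeR 4.0.16) or size factors (DESeq2 1.42.0). Python 3.11.15, pandas 2.3.3, scipy 1.17.1 and R 4.3.3 were used. The ratio step was tested on simulated data. Segments and words were read from GENCODE M21 transcripts, and coordinates are 1-based.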

Additional observations from a re-analysis of the deposited data

How the results depend on the processing

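Of the 58 genes, 44 were detected, with 53 at a minimum of 0.5 TPM, 39 at 2 TPM, 50 in the second quantification and 46 in either library alone. The 50 were counted at 1 TPM without division by the general factor of 1.53, so that threshold was in effect lower. The 0 genes past 1.5-fold became 1 with a mean count of 20 or more (Kif2c, at -0.62 on the log2 scale with 34 and 26 counts) and 2 without a minimum count (with Kif12 added). The count stayed at 0 with TMM or DESeq2 scaling, with a pseudocount of 1 and in the second quantification. In the second quantification the heavy to light chain ratio of kinesin-1 was 1.21, and the ratios to Dync1h1 were 1.20 for intermediate, 0.846 for light intermediate, 4.42 for LC8, 1.54 for roadblock and 2.20 for Tctex chains. With protein-coding transcripts alone, an alternative chosen after seeing the data, kinesin-1 gave 1.07 and the dynein classes 1.09, 0.767, 2.21, 1.17 and 1.81 in the same order. The cause of these differences was not tested. In single libraries the ratios ranged from 1.01 to 1.02, 1.00 to 1.04, 0.899 to 0.939, 3.14 to 3.29, 1.04 to 1.11 and 1.75 to 1.81. The same top transcript was found for 18 of 27 genes, for 22 of 32 from 5 TPM and for 19 to 20 in single libraries. All 29 levels at 10 TPM or more moved beyond the SD of the libraries in the second quantification, and 14 of them with posterior means. The count of 29 was made without division by the general factor of 1.53, so it mostly repeats that factor. After division the median of the 29 was 1.01 times the first quantification, and 27 lay within 1.5 times. In the second quantification the percentiles of the 29 among protein-coding genes moved by -3.23 to 9.75 points. Values of about 100 counts or fewer, as for most mitotic kinesins, carry wide counting intervals. No paired analysis was possible because the series has 1 group.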

Other observations

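Of the kinesins outside the naming pattern, Kifc2, a minus-end-directed kinesin of neurons, stood at 141 TPM in replicate 1 and 146 TPM in replicate 2, near Kif21b. Kifc3 stood at 26.2 and 30.4 TPM. Of the genes known from mitosis, Kifc1 stood at 1.84 and 2.73 TPM, Kifc5b at 1.51 and 2.20 TPM and Cenpe at 1.36 and 1.40 TPM. Of 15 axonemal dynein genes matched, 6 were detected, and Dnal1 was by far the highest at 46.2 and 42.8 TPM. Of the 8 with a mean of 100 counts or more, 2 were past 1.5-fold by TPM, Dnah2 at 1.98 and 3.37 TPM and Dnah11 at 0.55 and 1.13 TPM. By counts scaled to library size neither was past it, at 0.51 and 0.40 on the log2 scale.

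The deposited TPM of some motor genes lay outside the interval that the same gene table gives for them. It lay above the interval in both libraries for 7 genes (Kif1a, Klc1, Kif5a, Dynll2, Kif21b, Kif3c and Kif3b) and below it in both for 6 (Kif15, Kif20b, Kif6, Kif14, Kif12 and Kif2b). Over all protein-coding genes these shares were 2.05% and 22.0%. The intervals lie around the posterior mean TPM, which was inside them in both libraries for all 58 genes. Kif1a, for example, had 428 TPM in replicate 1 beside an interval of 405 to 427 and a posterior mean of 416 TPM. What share of the probability these intervals cover was not given in the sources used here.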
